A study of Mus musculus with 16 samples.

Results

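Dendritic cells take up antigen in tissue, mature and carry it to lymph nodes, where they present it to T cells. Skin holds several kinds: Langerhans cells of the epidermis, which carry the lectin langerin, and conventional dendritic cells of the dermis. The latter depend on the receptor Flt3 and express the transcription factor Zbtb46. Genes of these cells were read in B16 graft tissue. Those listed were Itgax, Flt3, Zbtb46, Cd209a, Cd86, Cd83, Cd207 and Clec10a (formerly Mgl1), chosen by gene name, with earlier results of these data known. Of these 8 genes, 6 have at least 1 probe in the platform annotation used, with 9 probes in all, among 9450 genes tested. Itgax and Flt3 have none there and were not analysed here.

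The study hybridised total RNA of C57BL/6 mice aged 8 weeks to Illumina bead arrays. Control tissue had 7 arrays, the B16 tumor microenvironment 4 arrays at day 4 after inoculation and 5 arrays at day 14. B16 is a pigmented melanoma line of the same mouse strain. The labels name no treatment or allele and do not say which tissue served as control, how much of the graft itself was taken, or whether each replicate number was a separate mouse, so the p-values cover only how these samples varied, which may be technical. These are whole-tissue samples, in which fewer cells of a type and less RNA per cell cannot be told apart. A value below is the normalized log2 signal of a gene's brightest probe, and a difference is a difference of such values. A probe counts as detected on an array at a detection p under 0.05.

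Some arrays stood apart. Day 4 array 4 and day 14 arrays 2 and 5, called the host-poor arrays below, detected 2 of 8 general leukocyte genes and 3 of 11 macrophage genes each, against 7 or 8 leukocyte genes and all 11 macrophage genes on each of the other 13 arrays. They detected 15555 to 16663 probes, against 18468 to 21669 on the others. The mean of 8 melanocyte genes was 12.28 to 12.46 on them. The control label did not mean absence of pigment-cell transcripts, since the lowest control mean of these genes was 5.60, on array 1, and the other 6 controls had 9.80 to 12.50. The main comparisons are given over all 16 arrays and over the 13 arrays without the host-poor ones, which leaves 3 arrays at each day. This set of 13 was chosen with earlier results known.

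Detection separated 5 of the 6 genes from Zbtb46. Cd207, Cd209a, Clec10a, Cd86 and Cd83 were detected on 0 of the 3 host-poor arrays, where their values lay between 4.35 and 5.32. On the other 13 arrays each was detected on all 13, except Cd209a on 12. Zbtb46 was detected on all 3 host-poor arrays, which with day 14 array 3 held its 4 highest values, so its probe did not follow the other 5 genes there. The host-poor arrays are described above by their few leukocyte and macrophage genes. Low values of dendritic cell genes on them are therefore not a separate result. The share of all tested genes that were undetected on these arrays was not counted.

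**Figure D1:**
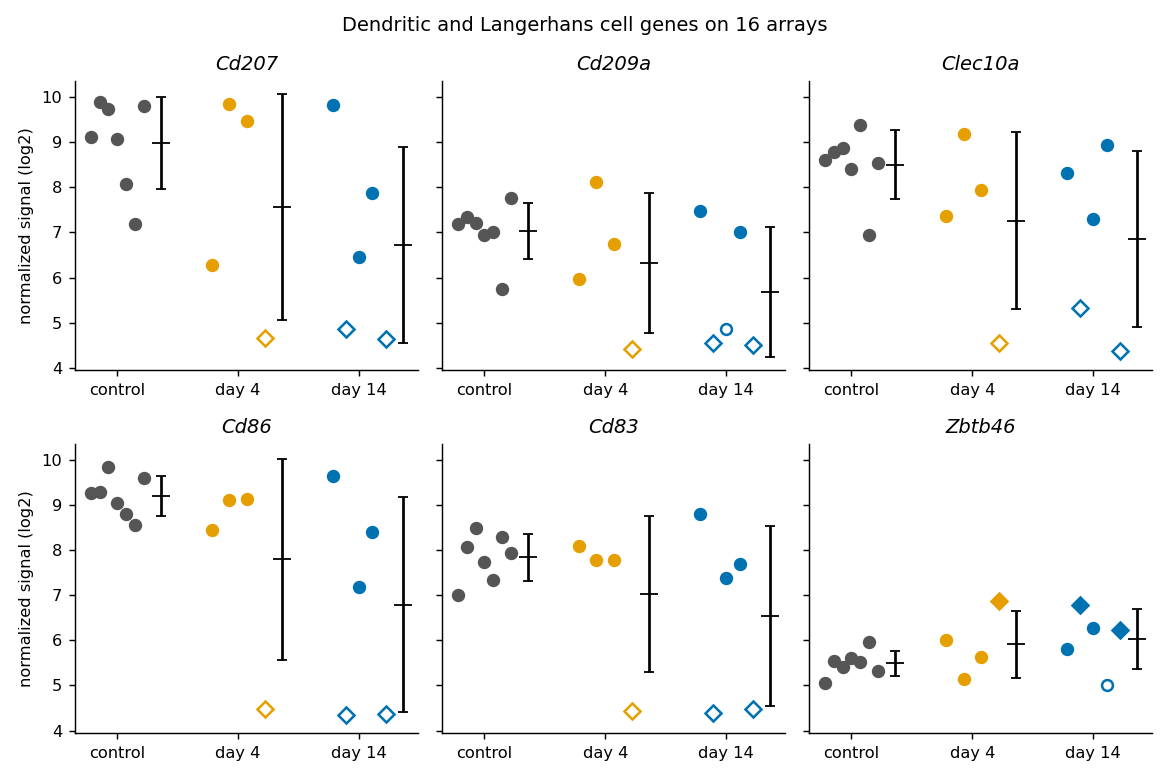
Normalized log2 signal of the 6 genes on each of 16 arrays by group (filled symbols: detected; open symbols: not detected; diamonds: the 3 host-poor arrays; bars: mean ± SD over all arrays of the group). Cd207, Cd209a, Clec10a, Cd86 and Cd83 lie between 4.35 and 5.32 on the host-poor arrays, and Zbtb46 lies between 6.24 and 6.87 there.

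The members with lectin function come first. Cd207 encodes langerin, the lectin that forms Birbeck granules in Langerhans cells and that also marks some dermal dendritic cells. Cd209a is a mouse relative of DC-SIGN, and Clec10a is a galactose-binding lectin of dermal dendritic cells and macrophages. Over the 13 arrays Cd207 and Cd209a moved together (Pearson r = 0.87, Spearman rho = 0.87, n = 13, given as a description). Their promoters are shown because of that shared pattern: the 250 bases before the RefSeq start in build GRCm38.p6, of Cd207 at chr6:83677858-83678107 and of Cd209a at chr8:3748985-3749234, both on the minus strand and both printed 5′ to 3′. Capitals mark a PU.1 core (GAGGAA), an AP-1 motif (TGANTCA) or an ETS-IRF composite (GGAA, any 2 bases, GAAA), searched on both strands. PU.1 and IRF factors are myeloid and dendritic cell regulators.

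Cd207: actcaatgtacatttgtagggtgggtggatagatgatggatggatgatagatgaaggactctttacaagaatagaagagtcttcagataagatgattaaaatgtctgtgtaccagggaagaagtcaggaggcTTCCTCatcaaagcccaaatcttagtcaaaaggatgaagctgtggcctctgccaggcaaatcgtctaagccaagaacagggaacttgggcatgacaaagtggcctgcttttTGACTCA

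Cd209a: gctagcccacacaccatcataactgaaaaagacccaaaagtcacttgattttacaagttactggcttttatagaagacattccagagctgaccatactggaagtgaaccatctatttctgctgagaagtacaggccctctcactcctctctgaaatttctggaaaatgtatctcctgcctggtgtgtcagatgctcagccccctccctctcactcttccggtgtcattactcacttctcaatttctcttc

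The Cd207 window held 1 PU.1 core on the opposite strand, at -118 to -113 from the start, and 1 AP-1 motif at -7 to -1, and the matches did not overlap. None of the 3 motifs was in the Cd209a window. Of 32851 mouse promoter windows of this length, 23.3% held the PU.1 core, 6.75% the AP-1 motif and 2.30% the composite. A match is a description of letters, not a binding site.

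In the 7 controls Cd207 was detected on every array. Its lowest value was 7.18, its median 9.12 and its highest 9.90. At day 4 it was 6.27, 9.83, 9.46 and 4.67 on arrays 1 to 4, and at day 14 it was 9.81, 4.85, 6.46, 7.87 and 4.63 on arrays 1 to 5. Day 4 arrays 2 and 3 and day 14 array 1 thus lay within the upper part of the control range, while the others lay below the control median, and the groups overlap in every comparison. The second Cd207 probe correlated with the first at 0.99 over the 13 arrays and differed from control by -1.02 at day 4 and by -2.02 at day 14 in a fit of all probes.

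The day 4 mean of Cd207 was 7.56 ± 2.50 (SD, n = 4) and the control mean 8.98 ± 1.01 (SD, n = 7), a log2 difference of -1.43 with a standard error of 1.07 (limma, adjusted p = 0.75). At day 14 the mean was 6.73 ± 2.17 (SD, n = 5), a difference of -2.26 from control with a standard error of 0.995 (limma, adjusted p = 0.269). Neither passed. Without the host-poor arrays the differences were -0.46 at day 4 and -0.93 at day 14, each with a standard error of 0.86. They also rest on single arrays: without day 4 array 1 as well the day 4 difference was 0.66, and without day 14 array 3 as well the day 14 difference was -0.14.

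Cd209a was lowest on the same arrays as Cd207. Its control values ranged from 5.75 on array 6 to 7.76, with a median of 7.19. The day 4 arrays 1 to 4 gave 5.97, 8.12, 6.75 and 4.41, and the day 14 arrays 1 to 5 gave 7.48, 4.55, 4.86, 7.00 and 4.51. The probe was not detected on day 14 array 3, the only one of the 13 arrays where it was missed, and day 4 array 2 was the highest of all. The Cd209a mean was 7.03 ± 0.63 (SD, n = 7) in controls, 6.31 ± 1.55 (SD, n = 4) at day 4 and 5.68 ± 1.44 (SD, n = 5) at day 14, and the ranges overlap. The difference from control was -0.72 with a standard error of 0.686 at day 4 (limma, adjusted p = 0.75) and -1.35 with a standard error of 0.641 at day 14 (limma, adjusted p = 0.269). Over 13 arrays these were -0.09 and -0.58, each with a standard error of 0.58, and 0.21 at day 14 without day 14 array 3 as well.

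Clec10a had a control range of 6.95 on array 6 to 9.38 on array 5, with a median of 8.61. Its day 4 values were 7.36, 9.18, 7.93 and 4.55 on arrays 1 to 4. At day 14 it was 8.32, 5.32, 7.30, 8.93 and 4.38 on arrays 1 to 5. Every tumor array other than the host-poor ones lay within the control range. Its mean was 8.50 ± 0.75 (SD, n = 7) in controls, 7.26 ± 1.96 (SD, n = 4) at day 4 and 6.85 ± 1.94 (SD, n = 5) at day 14. The difference from control was -1.25 with a standard error of 0.885 at day 4 (limma, adjusted p = 0.75) and -1.65 with a standard error of 0.827 at day 14 (limma, adjusted p = 0.27), and without the host-poor arrays -0.35 and -0.32, each with a standard error of 0.508.

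The remaining surface proteins act in T cell priming. Cd86 encodes the costimulatory ligand B7-2, which binds CD28 and CTLA-4 on T cells, and Cd83 marks mature dendritic cells and keeps class II molecules at the surface. Cd86 in controls had a lowest value of 8.54, a median of 9.26 and a highest of 9.83. Day 4 arrays 1 to 4 gave 8.44, 9.10, 9.13 and 4.49, and day 14 arrays 1 to 5 gave 9.64, 4.35, 7.19, 8.40 and 4.37. Apart from the host-poor arrays, day 4 array 1 and day 14 arrays 3 and 4 lay below the lowest control, and day 14 array 1 lay near the highest.

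Mean Cd86 was 9.19 ± 0.44 (SD, n = 7) in controls, 7.79 ± 2.23 (SD, n = 4) at day 4 and 6.79 ± 2.38 (SD, n = 5) at day 14, with overlapping ranges. Cd86 differed from control by -1.40 with a standard error of 1.00 at day 4 (limma, adjusted p = 0.75), and by -0.30 without the host-poor arrays. By day 14 it was -2.40 with a standard error of 0.937 (limma, adjusted p = 0.269), the most negative of the 6 genes. Its other probes gave day 14 differences of -2.16 and -1.37 in a fit of all probes, and correlated with the brightest at 0.97 and 0.78 over the 13 arrays. Without the host-poor arrays the day 14 value was -0.78 (standard error 0.428; limma, adjusted p = 0.967), and without day 14 array 3 as well it was -0.17.

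Cd83 behaved unlike the lectins among tissue arrays. Its control values ranged from 7.01 on array 1 to 8.48, with a median of 7.93. Day 4 arrays 1 to 4 gave 8.09, 7.78, 7.77 and 4.43. Day 14 arrays 1 to 5 gave 8.79, 4.38, 7.38, 7.68 and 4.48, so that day 14 array 1 was the highest of the 16 and the host-poor arrays were the lowest. Mean Cd83 was 7.83 ± 0.52 (SD, n = 7) in controls, 7.02 ± 1.73 (SD, n = 4) at day 4 and 6.54 ± 2.00 (SD, n = 5) at day 14, with overlapping ranges. The differences from control were -0.82 with a standard error of 0.833 at day 4 (limma, adjusted p = 0.75) and -1.29 with a standard error of 0.778 at day 14 (limma, adjusted p = 0.306). Without the host-poor arrays both turned, to 0.05 and 0.11, each with a standard error of 0.346.

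Zbtb46, the transcription factor of conventional dendritic cells and their precursors, is also expressed in endothelium. Its scanner signal was 125 to 191 on all 16 arrays, close to the background. In controls it ranged from 5.06 to 5.96 with a median of 5.53. Day 4 arrays 1 to 4 gave 6.01, 5.13, 5.63 and 6.87, and day 14 arrays 1 to 5 gave 5.81, 6.78, 6.28, 5.00 and 6.24. Day 14 array 4 was the only one of 16 arrays on which it was not detected. The control mean was 5.49 ± 0.28 (SD, n = 7), the day 4 mean 5.91 ± 0.74 (SD, n = 4) and the day 14 mean 6.02 ± 0.67 (SD, n = 5), with overlapping ranges. The difference from control was 0.42 with a standard error of 0.336 at day 4 (limma, adjusted p = 0.75) and 0.53 with a standard error of 0.314 at day 14 (limma, adjusted p = 0.299), and 0.10 and 0.21 without the host-poor arrays.

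A gene was called where limma gave an adjusted p below 0.05 together with a change of 2-fold or more. In both comparisons with control 0 of the 6 genes were called, and the share over all 9450 genes was 0% at each day, over 16 and over 13 arrays. The ranges of the groups were apart for 0 of the 6 at either day, where 0.0106% of all genes lay wholly lower and 0.0635% wholly higher at day 4, and 0.0847% and 0.0952% at day 14. At day 14, 5 of the 6 had a lower mean, where 47.5% of all genes did, and these 5 were at least 2-fold lower, where 14.6% of all genes were. Of the 6, 2 (Cd86 and Cd207) were lower with an unadjusted p under 0.05, where 11.8% of all genes were, and 0 were higher, where 6.19% were.

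At day 4 the members' means were lower for 5 of 6, where 45.3% of all genes were lower, and at least 2-fold lower for 3 of 6 (Cd207, Cd86 and Clec10a), where 9.33% were. None of the 6 had an unadjusted p under 0.05 in limma, where 0.212% of all genes were lower and 0.381% higher at that level. Without the host-poor arrays 4 of 6 had a lower mean at each day, where 47.5% of all genes did at day 4 and 54.9% at day 14. On those 13 arrays 0 of 6 were at least 2-fold lower, where 0.307% and 2.2% of all genes were. Their unadjusted p was under 0.05 for 0 of 6, where at day 4 0.0317% of all genes were lower and 0.106% higher, and at day 14 1.2% lower and 0.963% higher. The median log2 difference of the 6 genes was -1.03 at day 4 and -1.50 at day 14, against 0.05 and 0.04 over all genes. Over 13 arrays it was -0.19 and -0.45, against 0.01 and -0.04. Both comparisons share the 7 controls.

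Between the days, Cd86 differed by -0.999 (standard error 1.07), Cd207 by -0.83 (standard error 1.14) and Cd209a by -0.63 (standard error 0.735). Cd83 differed by -0.48 (standard error 0.892), Clec10a by -0.41 (standard error 0.947) and Zbtb46 by 0.11 (standard error 0.36). Without the host-poor arrays these were -0.48 for Cd86 (standard error 0.507), -0.47 for Cd207 (standard error 1.02), -0.50 for Cd209a (standard error 0.686), 0.069 for Cd83 (standard error 0.41), 0.027 for Clec10a (standard error 0.601) and 0.11 for Zbtb46 (standard error 0.333). In both sets of arrays each difference was smaller than its standard error, and 0 of 6 were called by limma, where the share over all genes was 0%. The mean was lower at day 14 for 5 of 6, where 54.5% of all genes were lower, and 0 of 6 were at least 2-fold lower, where 2.3% were. The unadjusted p was under 0.05 for 0 of 6, against 0.402% of all genes lower and 0.201% higher, and the ranges were apart for 0 of 6, against 0.116% lower and 0.0529% higher. Over 13 arrays 3 of 6 had a lower mean, where 58.8% of all genes did, and 0 of 6 were at least 2-fold lower, where 0.275% were, or had an unadjusted p under 0.05, where 0.72% were lower and 0.339% higher.

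**Figure D2:**
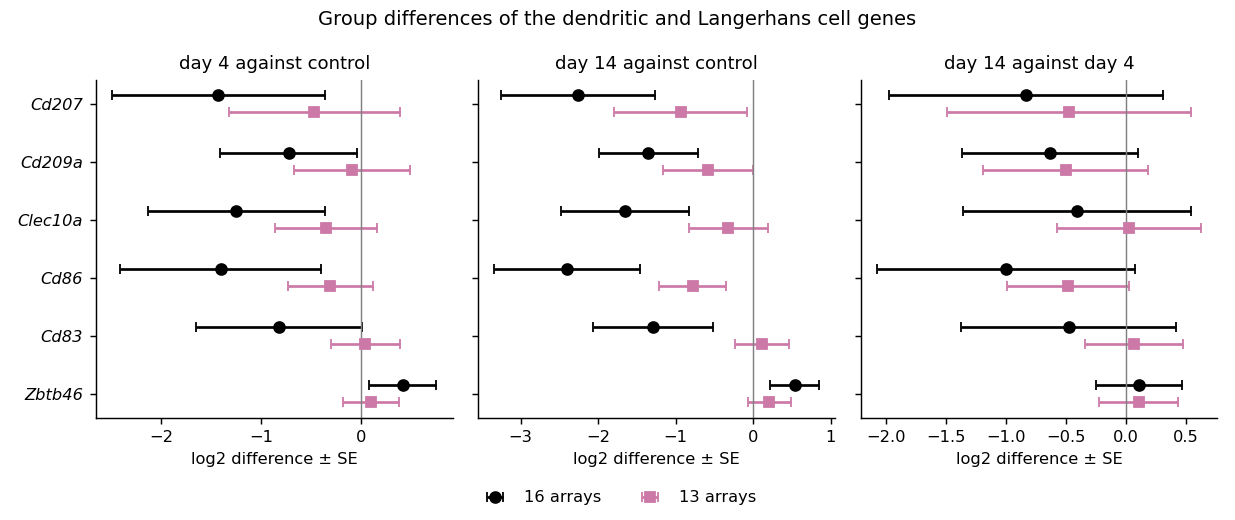
Log2 differences of the 6 genes in the 3 comparisons, with bars of 1 standard error, over 16 arrays (circles) and over 13 arrays without the host-poor ones (squares). At day 14 Cd86 moves from -2.40 to -0.78 and Cd83 from -1.29 to 0.11 when the 3 arrays are left out.

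The 6 genes differed in how they varied together among tissue arrays. Over the 13 arrays Cd207 correlated with Cd86 at 0.86 and with Clec10a at 0.64, Cd209a with Cd86 at 0.83 and with Clec10a at 0.81, and Cd86 with Clec10a at 0.52. Without the 2 arrays farthest from the median, Cd207 with Clec10a was 0.35, Cd86 with Clec10a 0.29 and Cd209a with Cd86 0.58, while Cd207 with Cd86 was 0.88. Cd83 had 0.14 to Cd209a, 0.23 to Cd207, -0.19 to Clec10a and 0.43 to Cd86. By Spearman's rho Cd86 was closer to Cd83 (0.46) than to Clec10a (0.25). Pearson r gave the other order, 0.43 against 0.52, and 0.17 against 0.29 without the 2 farthest arrays. Zbtb46 ran opposite to the lectins, at -0.78 to Cd209a, -0.79 to Clec10a and -0.59 to Cd207. It was also at -0.52 to Cd86, but at 0.28 to Cd83, and at 0.56 to Cd83 without the 2 farthest arrays. These 15 correlations are descriptions over 13 arrays that share tissue composition, and no p is given.

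The arrays lowest in the lectins can be named. On control array 6, day 4 array 1 and day 14 array 3, Cd207 was 7.18, 6.27 and 6.46 and Clec10a was 6.95, 7.36 and 7.30, the lowest values of the 13 arrays for each gene. Cd83 on these arrays was 8.29, 8.09 and 7.38, of which the first and second lay above the control median of 7.93. Keratinocyte genes were lowest on the same arrays, with a mean over 7 genes of 11.95, 11.06 and 10.84 against 12.22 to 13.51 on the other 10. The mean of 5 T cell genes was 8.01, 8.17 and 7.35 there, against 6.45 to 7.57 on the others, and the mean of 8 melanocyte genes was 12.50, 12.66 and 12.36, against 5.60 to 11.78. Fibroblast genes (mean of 7: 10.44, 9.87 and 10.17, against 11.38 to 12.26) and macrophage genes (mean of 11: 10.10, 9.96 and 10.08, against 10.46 to 11.13) were also lowest there. The mean of 8 general leukocyte genes was 9.60, 9.90 and 9.25 there, within the range of the other 10 arrays on the first and second, and on day 14 array 3 below their lowest value of 9.35. These arrays come from all 3 groups. The part of tissue composition in the gene values was not tested.

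Each gene also had its own closest company. Cd207 was most like Lce1b, a late cornified envelope gene of the outer epidermis (r = 0.98), Avpr1a, a vasopressin receptor (0.98), and Tmem45b (0.98), over 13 arrays and 9409 candidate genes. Lce1b ran from 9.83 to 14.00 and was detected on 0 of the 3 host-poor arrays. Cd207 followed the keratinocyte list mean at 0.88 and the general leukocyte mean at 0.38. Leaving out the 2 arrays with Cd207 farthest from its median, r was 0.98 with Lce1b, 0.67 with the keratinocyte mean and 0.48 with the leukocyte mean. Spearman's rho over 13 arrays was 0.60 with the keratinocyte and 0.48 with the leukocyte mean. It was 0.65 with the skeletal muscle, 0.64 with the macrophage, 0.55 with the mast cell and 0.43 with the fibroblast mean. Pearson r with the same means, in that order, was 0.74, 0.76, 0.79 and 0.82, so Cd207 did not follow the keratinocyte list alone. With the T cell and melanocyte means r was -0.52 and -0.39.

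Clec10a was most like Galnt16, a glycosyltransferase gene (r = 0.94), Igfbp7, a secreted vascular and stromal protein (0.94), and Aqp1, the water channel of endothelium and red cells (0.94). Of the marker lists compared, it followed the macrophage mean most closely, at 0.89, and at 0.82 without the 2 farthest arrays. The fibroblast (0.85), skeletal muscle (0.82), mast cell (0.77) and keratinocyte (0.70) means were not far below, so Clec10a did not follow the macrophage list alone. With the leukocyte, T cell and melanocyte means r was 0.37, -0.66 and -0.55. Cd209a was most like Emc9 (0.97), Mcf2l (0.96) and Pxmp4 (0.96), which were detected on all 3 host-poor arrays, where Cd209a was not. Cd86 was most like Ptpro, a receptor phosphatase (0.96), Pik3c3, the class III phosphoinositide kinase (0.96), and Pip4k2a (0.95).

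Cd83 was most like Klra7, an NK cell receptor of the Ly49 family (r = 0.85), Ube4b (0.83) and Lpxn, a leukocyte adaptor protein (0.83). Of the marker lists it followed the general leukocyte mean at 0.60 and the keratinocyte mean at 0.06. Zbtb46 was most like Prmt2 (0.97), Gfus (0.97) and Htra2 (0.97), each detected on all 3 host-poor arrays, and it followed the melanocyte mean at 0.81 and the keratinocyte mean at -0.85. Near-identical family members exist for Lce1b, Klra7 and Cd209a, and whether a probe also reads a relative was not tested.

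**Figure D3:**
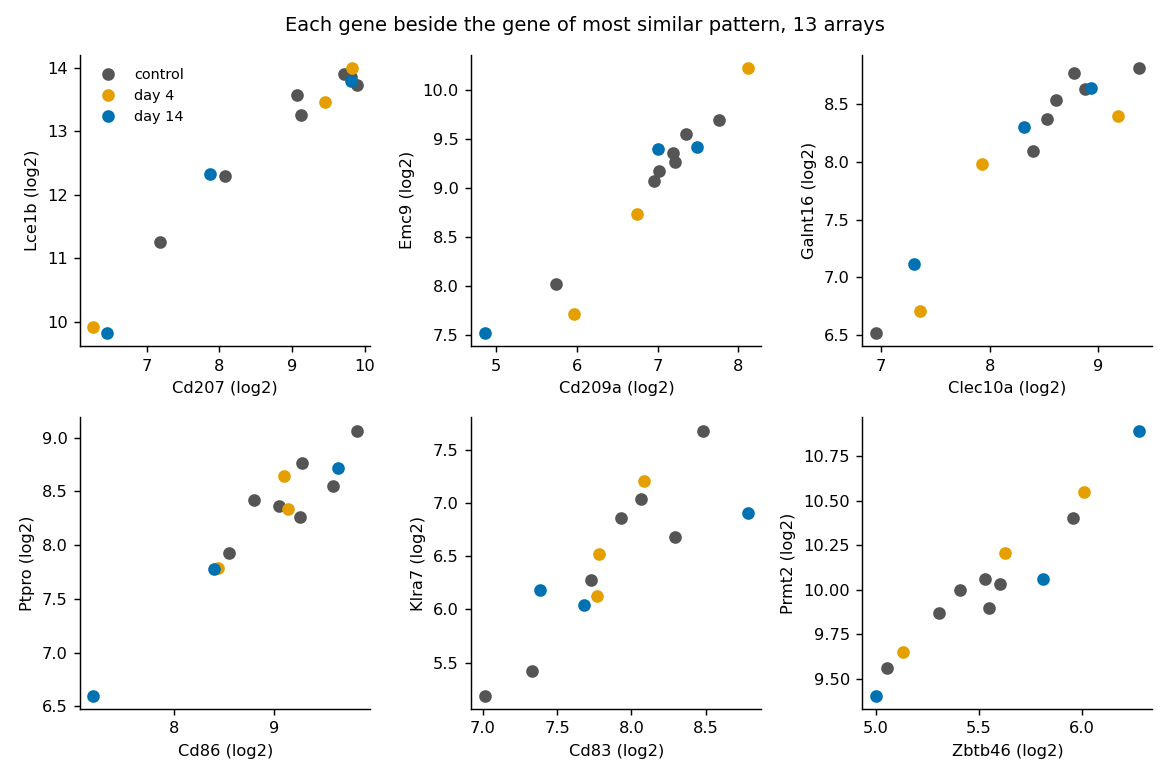
Each of the 6 genes (x axis, log2 signal) beside the gene of most similar pattern (y axis, log2 signal) on the 13 arrays without the host-poor ones, coloured by group. For Cd207 and Lce1b the lowest pair of points is day 4 array 1 and day 14 array 3.

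**Figure D4:**
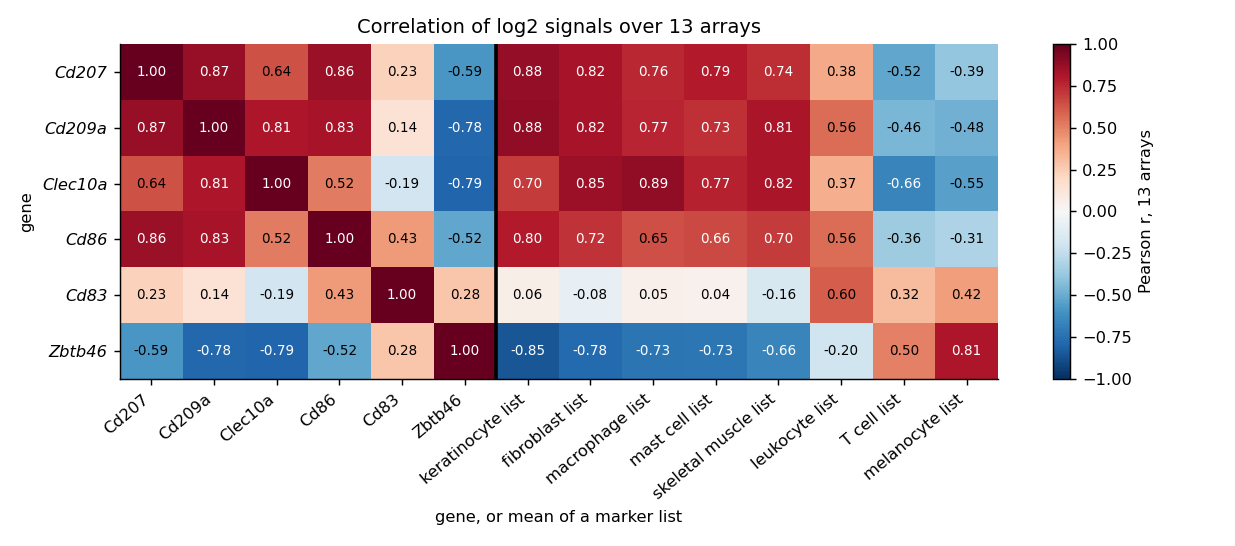
Pearson r over 13 arrays of the 6 genes with each other (left of the line) and with the mean of 8 marker lists (right of the line). Cd207 and Cd209a are at 0.88 with the keratinocyte list, Clec10a at 0.89 with the macrophage list, Cd83 at 0.60 with the leukocyte list and Zbtb46 at 0.81 with the melanocyte list.

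Set against the general leukocyte genes of the same array, the 13-array differences from control at day 14 were -0.75 for Cd207 (standard error 0.796), -0.60 for Cd86 (standard error 0.384), -0.40 for Cd209a (standard error 0.515), -0.13 for Clec10a (standard error 0.469), 0.30 for Cd83 (standard error 0.293) and 0.39 for Zbtb46 (standard error 0.342). On this scale the median of all genes was 0.15 at day 14. None of the 6 passed (limma, adjusted p from 0.948 to 0.966).

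Other dendritic cell genes were read as lists. By limma 0 members of the lists below were called in either direction in the 3 comparisons, where 0% of all genes were. At an unadjusted p under 0.05 the day 14 counts over 16 arrays were 1 higher and 0 lower of 6 cDC1 genes, 0 and 2 of 9 cDC2 genes, 0 and 2 of 6 plasmacytoid genes, 1 and 2 of 10 maturation genes, 0 and 4 of 16 lectins, and 1 and 0 of 8 Langerhans cell companions, where 6.19% of all genes were higher and 11.8% lower. Over 13 arrays the count was 0 in both directions for each of these lists, where 0.963% of all genes were higher and 1.2% lower. The lists share genes, so these counts are not separate findings. The higher gene of the cDC1 list and that of the Langerhans cell companions are the same gene (0.96). Cd209b counts as lower both among the cDC2 genes and among the lectins. A lower mean at day 14 was found for 47.5% of all genes over 16 arrays and for 54.9% over 13 arrays. Of 6 tested genes of cross-presenting conventional dendritic cells (cDC1), 4 had a lower mean at day 14 (3 over 13 arrays) and the median difference was -0.62, which became -0.01 without the host-poor arrays. The members that differed most were Irf8, a lineage factor (-1.21, standard error 0.62), Itgae, the CD103 integrin chain (-1.14, standard error 0.591), and Clec9a, a receptor for dead cells (-1.03, standard error 0.485). Without the host-poor arrays these were -0.15, -0.67 and -0.47. Of 9 genes of the cDC2 list, 6 had a lower mean at day 14 (8 over 13 arrays), with a median of -1.72 and, over 13 arrays, -0.33. Klf4 differed by -2.49, Cd209b by -2.20 and Mgl2, the sister lectin of Clec10a, by -2.19, and over 13 arrays by -0.33, -0.54 and -0.16. Which cells of the whole tissue gave these signals was not tested.

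The maturation and migration list had 10 tested genes, with a median day 14 difference of -0.33 and, over 13 arrays, -0.08. Cd200 differed by -1.88, the CD40 costimulator Cd40 by -1.50 and the cytokine-signal inhibitor Socs2 by -1.29, and over 13 arrays by -0.08, -0.26 and -0.64. In the list of plasmacytoid dendritic cell genes (6 tested, median -0.59, or -0.22 over 13 arrays), Ly6d (-3.45, or -0.60 over 13 arrays) and Cox6a2 (-2.51, or -1.38) are also genes of stratified epithelium and of striated muscle, and Bst2, an interferon-induced tetherin, was at 1.13, or 1.07 over 13 arrays. The myeloid C-type lectin list had 16 tested genes, of which 15 had a lower mean at day 14 over 16 arrays and 12 over 13 arrays (all genes: 47.5% and 54.9%), with medians of -1.60 and -0.20. Cd209f (-3.28), the mannose receptor Mrc1 (-3.05) and Clec4a3 (-2.22) differed most, and over 13 arrays by -0.51, -0.43 and -0.25. Mrc1 is also one of the macrophage genes by which the host-poor arrays are described, so its difference over 16 arrays is not a separate result. Langerhans cell companions (8 tested, median -2.52, or -0.15 over 13 arrays) were led by the class II genes H2-Ab1 (-3.75), H2-Eb1 (-3.33) and H2-Aa (-2.87), which were at -0.14, -0.10 and -0.40 over 13 arrays. None of these had an adjusted p under 0.269 by limma.

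**Figure D5:**
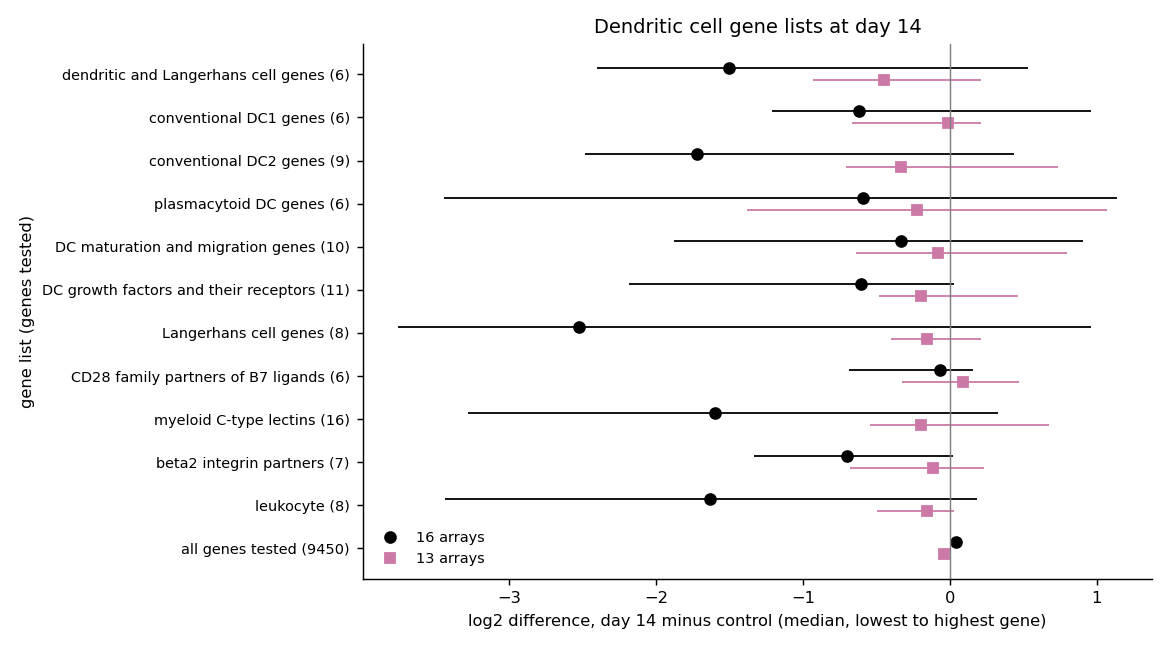
Log2 difference of day 14 from control for each gene list, as the median (symbol) and the lowest to highest gene (line), over 16 arrays (circles) and 13 arrays (squares). The number of tested genes is in brackets, and no line is drawn for all genes. The medians of the dendritic and Langerhans cell genes are -1.50 and -0.45.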

How the data were processed

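Per the labels' protocols, RNA was extracted with Trizol, cleaned on columns with DNase treatment, turned into biotin-labelled cRNA and hybridised to Illumina arrays. Per the file headers, the deposited scanner table holds, for each probe on each array, an intensity with its detection p-value. These deposited p-values are displaced by 2441 lines against the intensities after the first lines; with the displacement undone, 0 reversals of p against signal remained. The authors' deposited log2 value table, made in a way not stated here, served as an alternative.

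Background correction (normexp, using detection p), an offset of 16, quantile normalization and log2 were applied with neqc (limma 3.58.1, R 4.3.3). Probes with detection p under 0.05 on at least 4 arrays were kept, and the probe of highest mean stood for a gene. Symbols come from the platform annotation, updated by gene ID. A single limma model (lmFit, eBayes) held the 3 groups over 16 arrays. Tests are two-sided, with Benjamini-Hochberg adjustment over all 9450 genes in each comparison. They were tried on simulated data with independent genes and the same spread in each group. These arrays share tissue composition across genes and differ in spread between groups, so the trial does not show how the tests behave on them. The number of arrays limits the precision. No slide or scan was given, so no batch was fitted. The genes of similar pattern are the 3 of highest Pearson r over 13 arrays among genes detected on at least 8 of them, and from each list the 3 with the largest day 14 difference are named. Members and lists were chosen with earlier results of these data known. Promoters are those of RefSeq in GRCm38.p6, which held 5 of the 8 genes. The alternatives tried were the value table, background, offset, scaling, detection filter, mean of probes, array weights, replicate block, samples in the fit, and arrays left out.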

Additional observations from a re-analysis of the deposited data

Results flagged for a closer look

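Within the groups, 4 of the 18 combinations of gene and group had a lone array far from the others. For a single combination chance gives about 1 in 20. All lie on day 4 array 4 or control array 6, and genes on 1 array share its tissue. The combinations are therefore not independent, and their count cannot be compared with that rate. Day 4 array 4, a host-poor array, had Cd86 at 4.49 with the next value at 8.44, and Cd83 at 4.43 with the next at 7.77. Control array 6 had Cd209a at 5.75 with the next control at 6.95, and Clec10a at 6.95 with the next at 8.40. This control array also had the lowest control mean of the 7 keratinocyte genes, 11.95, and the highest control mean of the 8 melanocyte genes, 12.50. The part of these values in the lectin genes was not tested.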

How the results depend on the processing

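Over 31 alternatives, 16 of which left out 1 array, 0 calls of the 6 genes were gained in limma, and 522 of 558 differences kept their sign. Many of these differences could not change. Leaving out 1 array does not alter a comparison that does not hold its group. A changed detection filter, or a fit of only the groups compared, left the differences of the 6 genes as they were. The count of 522 is therefore not a measure of robustness. Leaving out 1 array, the median difference of the 6 genes ranged from -1.58 to -0.19 at day 4, from -1.94 to -1.05 at day 14 and from -1.32 to -0.11 between the days. The -0.19 is the value without day 4 array 4. The signs that turned on leaving out 1 array were those of Cd83 at day 4 (-1.17 to 0.046) and, between the days, of Zbtb46 (-0.15 to 0.43), Cd83 (-1.34 to 0.063) and Clec10a (-1.31 to 0.24).

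With the host-poor arrays left out, Cd83 turned to 0.046 at day 4, 0.11 at day 14 and 0.069 between the days, and Clec10a to 0.027 between the days. Alternatives added after seeing the data gave the following. With the 13 arrays normalized alone, Cd83 was 0.045, 0.11 and 0.066, and Clec10a 0.025 between the days. Without day 4 array 1 as well, at day 4 Zbtb46 was -0.11, Cd209a 0.40, Cd207 0.66 and Clec10a 0.055, and Cd83 was 0.11 at day 14 and 0.17 between the days. Without day 14 array 3 as well, the median at day 14 was 0.021, with Zbtb46 -0.082, Cd209a 0.21, Cd83 0.40 and Clec10a 0.12. There Cd83 was 0.046 at day 4, and between the days the values were Zbtb46 -0.18, Cd209a 0.29, Cd86 0.13, Cd83 0.35, Cd207 0.32 and Clec10a 0.47. Relative to leukocyte genes, Cd83 was 0.30 at day 14 and 0.35 between the days, and Clec10a 0.31 between the days. These fits have fewer tumor arrays or another scale by construction. Under median scaling, which put the median of all genes at -0.12 at day 14 and -0.21 between the days, Zbtb46 was -0.051 between the days; the cause was not tested.

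The labels do not say whether replicate numbers pair the samples. The deviations of 13 same-numbered pairs of arrays correlated from -0.81 to 0.45, with 6 over 0.1. These were not set beside pairs of different number, so they do not decide whether the samples are paired. With a replicate block the median was -1.40 at day 4, -1.71 at day 14 and -0.30 between the days, with 0 of 9450 genes called in each comparison. Signal over background limits Zbtb46, and Cd209a on day 14 array 3. With 3 tissue arrays at each day, single arrays set the direction of several genes.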

Other observations

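Itgax and Flt3 were not analysed here, but genes whose products work with them were read. Of 7 tested partners of the beta2 integrins, to which CD11c belongs, 0 were called at day 14, where 0% of all genes were. Their median day 14 difference from control was -0.70 over 16 arrays and -0.12 over 13. Fermt3, which activates integrins, differed by -1.34, the ligand Icam1 by -1.22 and Itgam, the CD11b chain, by -1.10, and over 13 arrays by 0.04, -0.12 and -0.68. Of 11 tested growth factors and receptors of dendritic and Langerhans cells, 0 were called, where 0% of all genes were. Their median difference was -0.60, and -0.20 over 13 arrays. Csf1r, the receptor on which Langerhans cells depend, differed by -2.18, Bmp7 by -1.51 and Tgfbr2 by -1.20, and over 13 arrays by -0.25, 0.04 and -0.43. Csf1r is also one of the macrophage genes by which the host-poor arrays are described, so its difference over 16 arrays is not a separate result.

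B7 ligands and their CD28 family partners other than Cd86 (6 tested genes) had a median day 14 difference of -0.07, and 0.09 over 13 arrays. Among them 0 were called, where 0% of all genes were. Cd80, the other B7 ligand of CD28, differed by -0.68 with a standard error of 0.281 (unadjusted p = 0.0276, limma adjusted p = 0.269), and by -0.33 over 13 arrays. Icosl differed by -0.46, and by -0.23 over 13 arrays. Cd274 differed by 0.16, and by 0.07 over 13 arrays.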
